A study of Mus musculus with 16 samples.

Results

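The genes described here are 10 components of NF-κB signaling downstream of RANK, CD40 and the lymphotoxin beta receptor (LTβR), followed in medullary thymic epithelial cells (mTEC) of the mouse. They were chosen by symbol as parts of this pathway, with earlier results of these data known. They are the receptors Tnfrsf11a (RANK), Cd40 and Ltbr, the decoy receptor Tnfrsf11b (osteoprotegerin), the adaptors Traf3 and Traf6, the kinase Map3k14 (NIK), and the NF-κB subunits Nfkb2, Relb and Rela. All 10 were found among the 89407 rows of the count table. Gene expression had been measured by stranded, paired-end poly(A) RNA-seq in 16 libraries from 8 mice aged 4 to 6 weeks, labelled C57BL/6 (the methods give a mixed 129S2/Sv and C57BL/6J background). From each mouse, 10000 mature mTEC (CD45- EpCAM+ Ly51- UEA+ MHCII high) and 10000 immature mTEC (the same gate, MHCII low) were sorted. Control mice were Rbfox1 lox/lox or Rbfox2 lox/lox with Foxn1 wildtype/wildtype, and conditional knockout (tKO) mice carried the same floxed alleles with Foxn1 wildtype/cre. Cre is thus driven from the Foxn1 locus in thymic epithelium, floxed alleles are shared by every mouse of a line, and Cre and the loss of the RNA-binding protein always go together. Each genotype of each line was represented by 2 individual mice, 1 female and 1 male, with sex-matched littermates as controls. Library totals were 3737884 to 4636367 counts in mature and 1506134 to 2430287 counts in immature mTEC. In the Rbfox2 line, Rbfox2 had 35 and 70 counts in mature tKO mTEC against 247 and 231 in controls, and 54 and 34 against 195 and 157 in immature mTEC, both called (adjusted p = 1.31e-06 and 0.000526 by edgeR). In the Rbfox1 line, Rbfox1 had 156 and 126 against 247 and 225 in mature mTEC (log2 fold change -0.66 ± 0.14, adjusted p = 0.242). In immature mTEC it had 327 and 299 against 381 and 391 (-0.09 ± 0.11, adjusted p = 0.947), so a lower level of the targeted gene was not detectable in the immature libraries labelled Rbfox1 tKO. Counts are summed over the whole gene, so they do not show whether the floxed part of it was lost. Foxn1, whose locus carries Cre, had 587 and 487 counts there against 315 and 331 in controls (0.94 ± 0.12, adjusted p = 0.00153 by edgeR). It was also higher in mature tKO mTEC of the Rbfox1 (0.77 ± 0.08, adjusted p = 0.000128) and Rbfox2 lines (0.58 ± 0.08, adjusted p = 0.00441). In immature mTEC of the Rbfox2 line it was not called (0.62 ± 0.13, adjusted p = 0.127).

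RANK, CD40 and LTβR are members of the TNF receptor family through which lymphoid cells instruct the thymic medulla. When they are engaged, TRAF3 no longer holds NIK at a low level, NIK accumulates and drives the processing of p100, the product of Nfkb2, into p52, and p52 enters the nucleus with RELB. TRAF6 links RANK and CD40 to the faster canonical arm, whose main transactivating subunit is RELA. Osteoprotegerin is a soluble receptor that binds the RANK ligand and keeps it from RANK. This signaling is known to be needed for the growth of the medulla and for the appearance of mTEC that express Aire, the regulator of peripheral tissue antigens.

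Promoter sequences of RefSeq (assembly GRCm38.p6) were at hand for 7 of the 10 genes. The 250 bases upstream of each start were searched on both strands for the κB motif, the sequence element that NF-κB dimers bind. It was written as GGGRNWYYCC, with R for A or G, N for any base, W for A or T and Y for C or T. These genes have 9 windows, 3 of them for Nfkb2. A match was found in 4 of the 9, those of Nfkb2 and Traf3, and in 3.9% of the 32851 windows of the table. They are printed here because Nfkb2 differed between mature and immature mTEC and Traf3 did not. All are printed from the plus strand, 5′ to 3′, with the bases inside a match on either strand in capitals and up to 8 flanking bases in lower case. At the first of the 3 RefSeq starts of Nfkb2, matches lay 39 to 29 bases upstream (chr19:46304690-46304716, where matches on both strands overlap) and 11 to 2 bases upstream (chr19:46304718-46304736). At the second and the third start, 1 match each lay at chr19:46305451-46305476 and chr19:46305697-46305722. The match at the second start is on the minus strand, so the printed letters are its reverse complement.
Nfkb2 start 1, distal: atcgtcacGGGAATTCCCCccctcggg
Nfkb2 start 1, proximal: ggccgaaaGGGGCTTTCCc
Nfkb2 start 2: cgacggcaGGAATGTCCCcacaaaag
Nfkb2 start 3: gtattttcGGGACTTTCCtaagcagc

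All 3 windows of Nfkb2 lie inside the annotated span of the gene (GENCODE M21), which begins at chr19:46304320. The bases just after the start were found in a GENCODE transcript of Nfkb2 for starts 1 and 3, but not for its other start, nor for the start of Traf6. For Traf3, the match took up the last 10 bases before the start, and the whole window of 250 bases (chr12:111166120-111166369) is given.
Traf3: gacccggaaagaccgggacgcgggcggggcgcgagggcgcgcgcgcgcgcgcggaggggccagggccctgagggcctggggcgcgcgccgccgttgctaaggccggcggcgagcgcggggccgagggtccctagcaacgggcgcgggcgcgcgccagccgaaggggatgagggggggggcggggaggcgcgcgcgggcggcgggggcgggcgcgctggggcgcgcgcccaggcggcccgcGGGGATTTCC

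No match was found for Tnfrsf11a, Ltbr, Rela, Map3k14 and Traf6, which says only that these letters are not in this window. A match is a stretch of letters and was not tested for binding in these cells.

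The first comparison asks how the pathway differs between mature and immature mTEC. Rises, falls and changes with maturation refer to this difference between 2 sorted populations, as no cells were followed over time. Levels are given in CPM, that is, as counts scaled to a common library total with TMM factors. Differences are log2 fold changes ± SE from edgeR's quasi-likelihood test, and a gene counts as called where its p, adjusted over all rows tested by the Benjamini-Hochberg method, was under 0.05. In control mice, 7 of the 10 genes were higher in mature mTEC, 2 were lower and 1 was not called, and in tKO mice the counts were the same. The background was high: 67.1% of the 16750 rows tested were called in control mice (37.2% higher, 29.8% lower), and 66.1% of 16578 in tKO mice (37.3% higher, 28.8% lower). With a fold change over 2 as well, 3 members were higher and 1 was lower in both, where 26.4% and 11.1% of all rows were so called in control mice and 25.9% and 12% in tKO mice. The CPM of mature and immature libraries did not overlap over the 8 mice for 8 of the 10 genes, as for 41.3% of the 11387 rows with a mean of at least 10 CPM. The median log2 fold change over the 10 genes was 0.64 in control mice, against 0.04 over all rows tested.

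**Figure D1:**
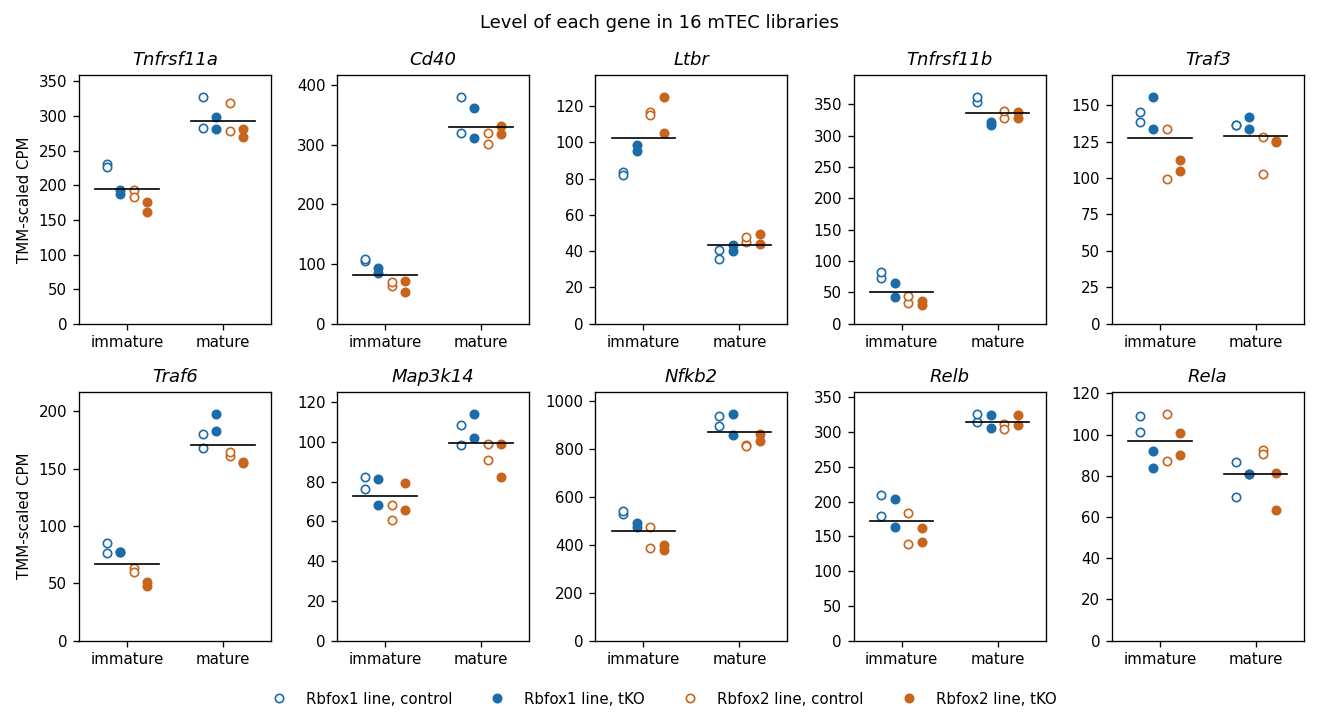
Level of each of the 10 genes in TMM-scaled CPM (y axes, from 0) in immature and mature mTEC (x axes), with 1 point per library, colored by line and filled for tKO mice. Black lines are means over 8 libraries. Mature and immature libraries are apart for every gene but Traf3 and Rela, and the lowest point for Tnfrsf11b in mature mTEC, 316.3 CPM, is far above its highest in immature mTEC, 82.6 CPM.

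Among the receptors, Cd40 was the one with the largest rise. CD40 receives its ligand mainly from activated T cells. Its gene (ENSMUSG00000017652, chr2:165055627-165072948, plus strand) is given, like all positions here, on GRCm38 with GENCODE M21. In immature mTEC, Cd40 ranged from 52.4 to 109 CPM around a median of 78.4, and in mature mTEC from 300.3 to 379 CPM around 319.6. The difference was 1.90 ± 0.11 (SE) on the log2 scale in control mice, a 3.74-fold rise (adjusted p = 6.84e-10), and 2.07 ± 0.11 in tKO mice (adjusted p = 1.82e-11). Every one of the 8 mice had more Cd40 in its mature cells.

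Tnfrsf11a (ENSMUSG00000026321, chr1:105780718-105847981, plus strand), which encodes RANK, differed in the same direction but by less. It lay between 162.0 and 230.1 CPM (median 190.1) in immature and between 269.8 and 327.0 CPM (median 282.0) in mature mTEC, with no overlap. The log2 fold change was 0.50 ± 0.08 in control (1.42-fold, adjusted p = 6.93e-05) and 0.60 ± 0.08 in tKO mice (adjusted p = 2.25e-06).

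Ltbr (ENSMUSG00000030339, chr6:125306571-125313885, minus strand), the receptor for lymphotoxin and LIGHT, was the receptor that fell. Immature libraries held 81.8 to 125 CPM (median 102) and mature libraries 35.7 to 49.4 CPM (median 43.7). It fell by 1.26 ± 0.09 on the log2 scale in control mice, to 0.418 of the immature level (adjusted p = 1.19e-08), and by 1.31 ± 0.10 in tKO mice (adjusted p = 1.07e-09). The 3 receptors of the pathway therefore did not move together: RANK and CD40 transcripts were higher, and LTβR transcripts lower, in the mature cells of every mouse.

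The largest difference of the 10 belonged to the decoy receptor Tnfrsf11b (ENSMUSG00000063727, chr15:54250619-54278484, minus strand). Its level was 30.2 to 82.6 CPM (median 43.7) in immature and 316.3 to 361 CPM (median 333) in mature mTEC. The log2 fold change was 2.55 ± 0.15 in control mice (5.86-fold, adjusted p = 8.76e-10) and 2.83 ± 0.14 in tKO mice (7.12-fold, adjusted p = 4.20e-12). The immature libraries were spread over more than a doubling, while the mature libraries lay close together.

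Ratios of counts per exon length within a library do not depend on scaling between libraries, and they were compared between the populations of each mouse by an exact two-sided sign-flip test over 8 mice, adjusted over 6 ratios. The smallest p that 8 mice allow is 0.00781. Where a ratio stands against 1 depends on the lengths used, all annotated exons of each gene, but its shift between populations does not. Tnfrsf11b stood at 0.529 of Tnfrsf11a in immature mTEC (range 0.367 to 0.774) and at 2.44 times Tnfrsf11a in mature mTEC (2.18 to 2.71). In every mouse the decoy receptor was thus below RANK in immature and above it in mature cells, a 4.62-fold shift of the ratio (exact p = 0.00781, adjusted p = 0.0117). Cd40 to Tnfrsf11a went from 0.720 (0.523 to 0.871) to 1.98 (1.72 to 2.35), also crossing equality in all 8 mice (2.75-fold, exact p = 0.00781, adjusted p = 0.0117). Ltbr to Tnfrsf11a went the other way, from 1.34 (0.918 to 1.96) to 0.376 (0.316 to 0.448), with the same exact p of 0.00781. Immature mTEC of the 2 Rbfox1 control mice, at 0.918 and 0.929, were the only ones below 1 for this ratio.

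**Figure D2:**
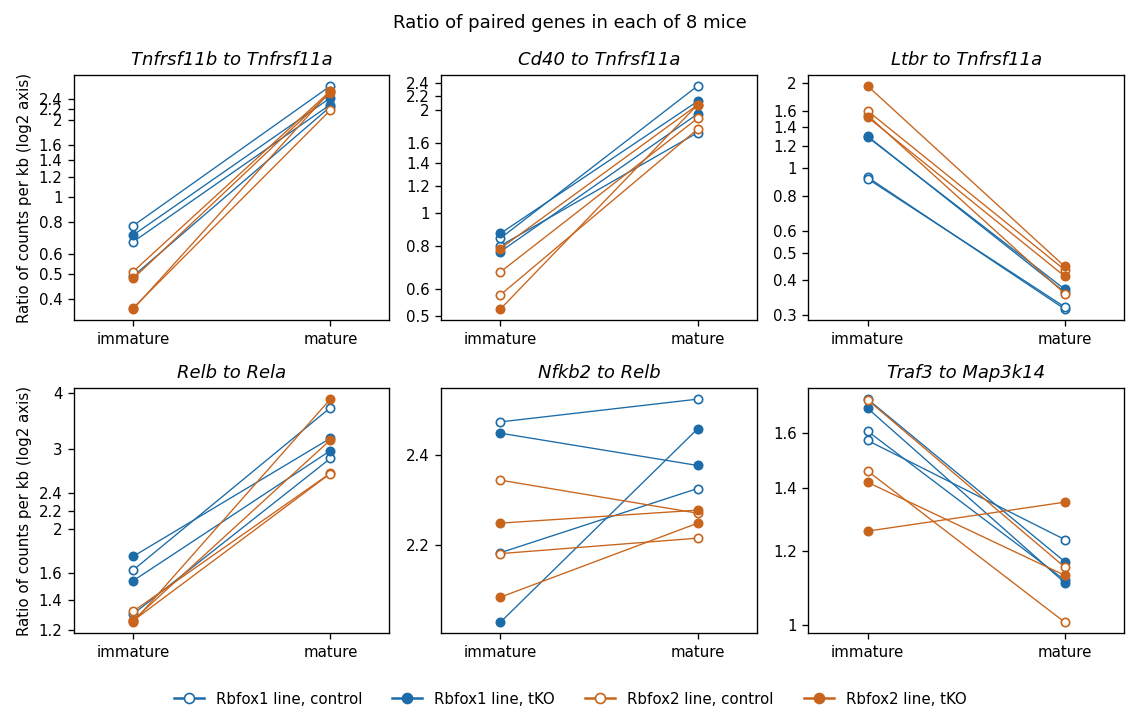
Ratio of counts per exon length of 2 genes (y axes, log2 scale) in the immature and mature mTEC of each of 8 mice (x axes), 1 line per mouse, colored by line and filled for tKO mice. Tnfrsf11b to Tnfrsf11a rose from 0.367 to 0.774 up to 2.18 to 2.71 in all 8 mice, whereas Nfkb2 to Relb stayed between 2.04 and 2.53.

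Of the adaptors, Traf6 (ENSMUSG00000027164, chr2:101678429-101701669, plus strand) rose, and a difference in Traf3 (ENSMUSG00000021277, chr12:111166370-111267153, plus strand) was not detectable. Traf6, a ubiquitin ligase used by RANK and CD40, ranged from 47.8 to 85.5 CPM (median 69.6) in immature and from 155 to 197 CPM (median 166) in mature mTEC. The log2 fold change was 1.21 ± 0.09 in control (2.31-fold, adjusted p = 1.37e-08) and 1.40 ± 0.10 in tKO mice (adjusted p = 4.26e-10). Traf3, the negative regulator that brings NIK to its degradation complex, lay at 99.4 to 155 CPM (median 134) in immature and 103 to 142 CPM (median 131) in mature mTEC. Its log2 difference was -0.07 ± 0.10 in control (adjusted p = 0.519) and 0.00 ± 0.09 in tKO mice (adjusted p = 0.986), and it was higher in the mature cells of 4 mice and lower in those of the other 4.

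Map3k14 (ENSMUSG00000020941, chr11:103219762-103267472, minus strand), the gene of NIK, was modestly higher in mature mTEC. Immature libraries ranged from 60.6 to 82.2 CPM (median 72.5) and mature libraries from 82.3 to 114 CPM (median 98.9), so that the groups only just missed each other. The log2 fold change was 0.43 ± 0.09 in control (1.34-fold, adjusted p = 0.000477) and 0.38 ± 0.10 in tKO mice (adjusted p = 0.00397). In the 4 tKO libraries of the Rbfox2 line alone it was 0.27 ± 0.15 and was not called (adjusted p = 0.141). The ratio of Traf3 to Map3k14 per exon length was lower in mature mTEC in 7 of 8 mice, 1.16 (1.01 to 1.35) against 1.55 (1.26 to 1.74, exact p = 0.0156, adjusted p = 0.0188), and Rbfox2 tKO replicate 1 was the mouse that went the other way.

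Both subunits of the non-canonical dimer, Nfkb2 (ENSMUSG00000025225, chr19:46304320-46312385, plus strand) and Relb (ENSMUSG00000002983, chr7:19606217-19629438, minus strand), rose. Nfkb2 lay at 378 to 539 CPM (median 474) in immature and 814 to 944 CPM (median 859) in mature mTEC. Its log2 fold change was 0.81 ± 0.07 in control (1.76-fold, adjusted p = 1.10e-07) and 0.95 ± 0.08 in tKO mice (adjusted p = 5.44e-09). Relb lay at 139 to 209 CPM (median 172) in immature and at 304 to 326 CPM (median 313) in mature mTEC. Its log2 fold change was 0.78 ± 0.09 in control (1.72-fold, adjusted p = 1.81e-06) and 0.86 ± 0.09 in tKO mice (adjusted p = 2.44e-07). Nfkb2 and Relb kept a near constant proportion, 2.25 (2.04 to 2.48) in immature and 2.33 (2.22 to 2.53) in mature mTEC, a log2 difference of 0.05 ± 0.10 (SD, n = 8 mice, range -0.05 to 0.27) that the exact test did not separate from 0 (exact p = 0.156).

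Rela (ENSMUSG00000024927, chr19:5637483-5648130, plus strand), the canonical subunit, went the other way by a small amount that did not hold in every setting. Immature libraries ranged from 83.9 to 110 CPM (median 96.4) and mature libraries from 63.3 to 92.5 CPM (median 81.3), with overlap, and it was lower in the mature cells of 7 of 8 mice. The log2 fold change was -0.31 ± 0.10 in both control (adjusted p = 0.0150) and tKO mice (adjusted p = 0.0145). The call was lost in both with DESeq2 (adjusted p = 0.0742 and 0.0641), without a filter on low counts (0.163 and 0.0649) and after thinning to equal depth (0.235 and 0.118), where the change in controls was -0.16. Within lines it was not called in control mice of the Rbfox2 line (-0.13, adjusted p = 0.357) or tKO mice of the Rbfox1 line (-0.19, adjusted p = 0.166). The call was also lost in controls without Rbfox1 control replicate 2 immature (0.0589) or replicate 3 mature (0.0823). In tKO mice it was lost without Rbfox2 tKO replicate 1 mature (0.0757) or replicate 2 immature (0.0650). Relb to Rela rose in all 8 mice from 1.40 (1.25 to 1.74) to 3.10 (2.65 to 3.87), a 2.21-fold shift (exact p = 0.00781, adjusted p = 0.0117).

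**Figure D3:**
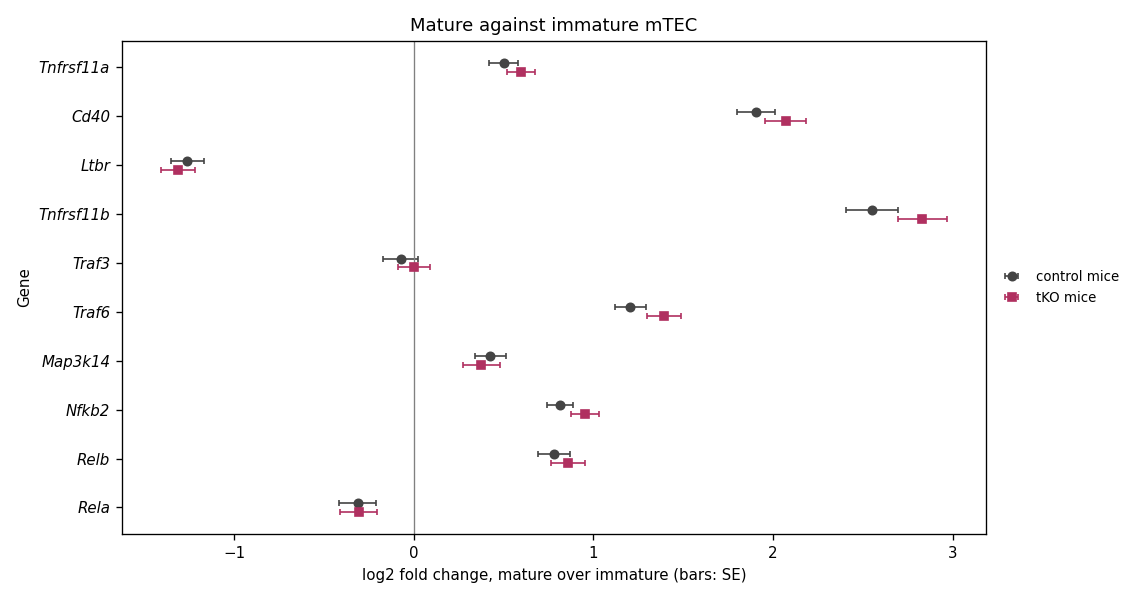
Log2 fold change of mature over immature mTEC (x axis) for the 10 genes (y axis), with standard errors, in 4 control mice (circles) and 4 tKO mice (squares). The 2 groups of mice lie close together for each gene, from Ltbr at -1.26 and -1.31 to Tnfrsf11b at 2.55 and 2.83.

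Per kilobase of exon, levels can be compared between genes. In mature mTEC the order by median CPM per kb was Nfkb2 (187), Tnfrsf11b (118), Cd40 (93.8), Relb (80.5) and Tnfrsf11a (47.1), and no neighbors in this order overlapped over the 8 libraries. Below them came Rela (26.5), Traf6 (21.1), Ltbr (18.6), Traf3 (17.8) and Map3k14 (15.1), each overlapping the next. In immature mTEC, Nfkb2 was again first at 103 CPM per kb and apart from the rest. Relb (44.2), Ltbr (43.3), Tnfrsf11a (31.8), Rela (31.4), Cd40 (23.0), Traf3 (18.2), Tnfrsf11b (15.5), Map3k14 (11.1) and Traf6 (8.83) followed with each pair of neighbors overlapping. Ltbr was thus among the more abundant of these transcripts in immature mTEC and near the bottom in mature mTEC. Tnfrsf11b was among the lowest in immature mTEC and second in mature mTEC.

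The counts behind these values set their precision. Tnfrsf11b rested on 45 to 202 counts per immature library and 1207 to 1648 per mature library, Traf6 on 72 to 209 and 570 to 887, and Nfkb2 on 563 to 1318 and 3067 to 4343. Among genes in the table, 4930595D18Rik overlaps Traf3 and Psd overlaps the last 299 bases of Nfkb2 on the opposite strand, and 1700028N14Rik overlaps Map3k14 on the same strand, so reads of these 3 members could in part be shared.

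Other genes of the pathway were taken from a list of 57, of which 49 were tested in control mice: 29 were higher in mature mTEC and 10 lower, with a median log2 fold change of 0.71 against 0.04 over all rows. In tKO mice, 26 of 47 were higher and 10 lower. These counts, and those by role that follow for control mice, stand against 37.2% of all rows called higher and 29.8% called lower in control mice, and 37.3% and 28.8% in tKO mice. Of the ligands, the RANK ligand gene Tnfsf11 alone could be tested and stood at 1.68 ± 0.56 (adjusted p = 0.0159) on few counts, while Cd40lg, Lta, Ltb and Tnfsf14 were too low to be tested. Of 13 other TNF receptor genes, 7 rose and 4 fell. Tnfrsf9 (4-1BB) rose by 3.50 ± 0.20, Tnfrsf4 (OX40) by 3.07 ± 0.30 and Fas by 1.64 ± 0.10, while the ectodysplasin receptor gene Edar fell by 2.45 ± 0.16 and Tnfrsf1a, the main TNF receptor, fell by 1.63 ± 0.10.

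Of 7 further adaptors and ubiquitin ligases, 5 rose, among them Traf1 by 1.73 ± 0.10 and Birc3 (cIAP2) by 1.09 ± 0.08, and Traf5 fell by 1.82 ± 0.25. Of 9 kinases and their partners 3 rose and 2 fell. Ikbkb and Chuk, the genes of the catalytic IκB kinases, rose by 0.78 ± 0.08 and 0.26 ± 0.10, and the related Ikbke by 1.34 ± 0.12. Tab1, a partner of the kinase TAK1, fell by 1.49 ± 0.15. The canonical subunit gene Rel rose by 1.88 ± 0.13, but Nfkb1 stood at -0.07 ± 0.08 (adjusted p = 0.456).

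Of 10 inhibitors and feedback regulators, 6 rose and 3 fell. Nfkbia, the gene of IκBα, rose by 1.19 ± 0.08 Nfkbid by 1.82 ± 0.26 and Tnip1, a partner of A20, by 1.30 ± 0.08, while Tnfaip3 (A20 itself), an enzyme that limits NF-κB signaling, fell by 0.74 ± 0.09. Of 9 listed genes known to respond to these receptors in mTEC, 7 could be tested and 6 of these rose. Cd80, a costimulatory ligand, stood at 3.34 ± 0.21, Aire at 3.08 ± 0.24, the chemokine gene Ccl20 at 1.75 ± 0.21 and Fezf2, another regulator of tissue antigens, at 1.26 ± 0.10. Ccl21a, also on this list, had no counts in any mature library. Aire and Cd80 are also used to tell mature mTEC from immature.

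Markers of other cells moved with this comparison. The sort was checked first: the 6 mature mTEC markers summed to 7125 to 7651 CPM in mature and 2868 to 3599 CPM in immature libraries, and the 5 immature mTEC markers to 395 to 495 against 1091 to 1511 CPM. The 7 markers of dendritic cells and macrophages summed to 273 to 356 CPM in mature but 13 to 21 CPM in immature mTEC, where Clec9a was at 0 in all 8 libraries. All 5 of those that could be tested were higher in mature cells. The 5 B cell markers summed to 61 to 80 against 7 to 16 CPM with 5 of 5 higher, and the 6 thymocyte and T cell markers to 45 to 59 against 3 to 23 CPM with 3 of 3 tested higher. The 6 general mTEC markers summed to 3193 to 4013 CPM in mature and 7104 to 9718 CPM in immature libraries, the 4 cortical epithelial markers to 136 to 176 against 134 to 185 CPM, and the 11 immediate early and stress genes to 2355 to 4095 against 2365 to 3335 CPM. The 6 fibroblast markers moved the other way in the Rbfox2 line, 513 to 703 CPM in mature against 1753 to 2581 CPM in immature libraries, while in the Rbfox1 line they held 402 to 566 against 340 to 669 CPM. The 4 endothelial markers held 22 to 32 CPM in mature and 19 to 186 CPM in immature libraries. The CD45- EpCAM+ gate is meant to leave out blood, stromal and endothelial cells. Dendritic cells and B cells are known to express Cd40 and Relb. The part of blood cells in the differences of these genes, and of any other member or pathway gene, was not tested. In bulk libraries, fewer cells of a type and less RNA per cell cannot be told apart.

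The second comparison asks whether loss of Rbfox1 or Rbfox2 changed the transcript levels of the pathway. The paper reports altered splicing in mature mTEC of both tKO lines, with only minor shifts in expression. Counts summed over a gene do not show which exons its transcripts hold, so splicing of the 10 genes was not tested. In no comparison of tKO with control mice was any of the 10 genes called. Calls were rare over the whole table too. In mature mTEC 0.0222% of 18021 rows were called for Rbfox1 (11 rows with the replicate block against 4 without it) and 0.0555% for Rbfox2 (28 against 10). In immature mTEC 0.0383% of 13060 rows were called for Rbfox1 and 0.0919% for Rbfox2. Over both lines, with 4 tKO against 4 control mice, 0.0388% were called in mature (17 with the block against 7) and 0.0919% in immature mTEC (28 against 12), and again no member. The block, which pairs mice by number, changed no call of a member. DESeq2 called no member either.

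The member differences in tKO mice ran from -0.16 to 0.13 on the log2 scale for Rbfox1 and from -0.32 to 0.13 for Rbfox2 in mature mTEC, and from -0.50 to 0.26 and from -0.25 to 0.22 in immature mTEC. The largest was that of Tnfrsf11b in immature mTEC of the Rbfox1 line. These are libraries labelled tKO in which a lower Rbfox1 level was not detectable in counts summed over the gene. It stood at 43.3 and 64.5 CPM in tKO replicates 2 and 3 against 72.4 and 82.6 CPM in the controls of the same numbers, so both tKO libraries were below both controls. The log2 difference was -0.50 ± 0.18 (unadjusted p = 0.0139, adjusted p = 0.756 by edgeR over all rows), and it moved between -0.80 and -0.24 as single libraries were left out. In the Rbfox2 line the values were 30.2 and 36.5 CPM against 33.4 and 44.1 CPM, which overlap, a difference of -0.15 ± 0.24.

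Tnfrsf11a in the same immature libraries of the Rbfox1 line was 188 and 193 CPM in tKO against 230 and 227 CPM in control mice, apart in level but not called (-0.23 ± 0.10, unadjusted p = 0.0403, adjusted p = 0.823 by edgeR). Rela in mature mTEC of the Rbfox2 line was 63.3 and 81.5 CPM in tKO against 92.5 and 90.4 CPM in controls (-0.32 ± 0.13, unadjusted p = 0.0196, adjusted p = 0.859). Without tKO replicate 1, the lower of the 2, this difference was -0.16. Nfkb2 and Relb, on high counts, differed by at most 0.11 on the log2 scale in either population of either line.

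**Figure D4:**
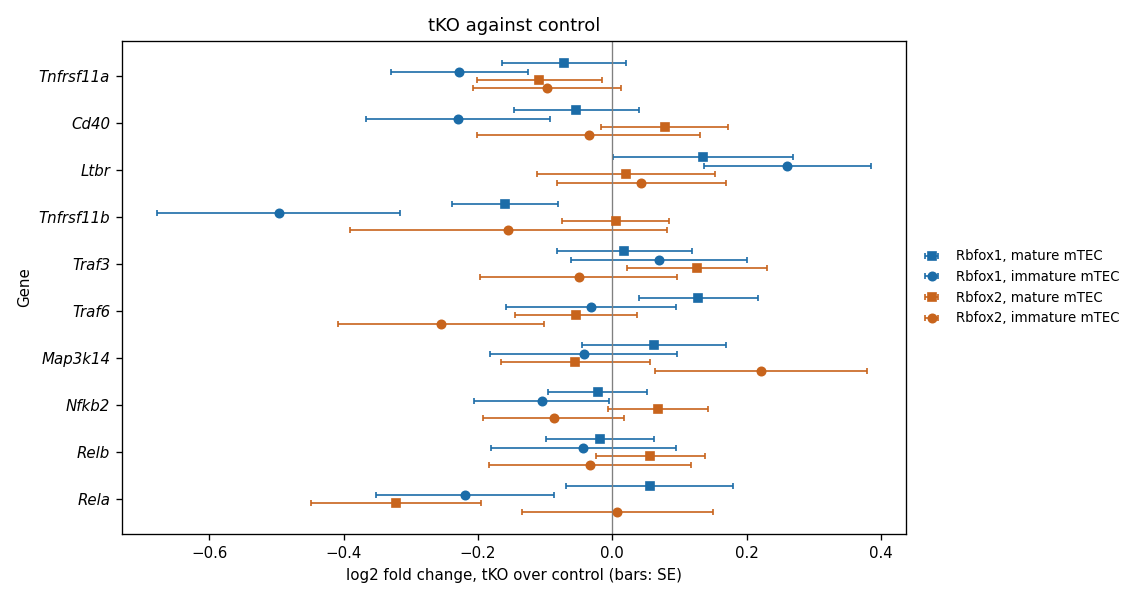
Log2 fold change of tKO over control (x axis) for the 10 genes (y axis) in mature (squares) and immature (circles) mTEC of the Rbfox1 and Rbfox2 lines, with standard errors, from 2 tKO and 2 control mice each. The points lie between -0.50 and 0.26, and none was called.

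Whether maturation itself differed between tKO and control mice was tested over all 16 libraries as an interaction. No row of 17442 was called by edgeR (920 at an unadjusted p under 0.05, 1 with DESeq2, and 27 with the mouse as a block), and no member was called. The member differences lay between -0.07 and 0.31, the highest being Tnfrsf11b (0.31 ± 0.15, unadjusted p = 0.0451, adjusted p = 0.928). Of the further pathway genes that were tested, none was called in any comparison of tKO with control mice. Some of the list of 57 had too few counts to be tested.

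The lines themselves differed in immature mTEC. With tKO and control mice of each line in 1 group, 4 libraries against 4, 6 of the 10 genes were higher in the Rbfox1 than in the Rbfox2 line and Ltbr was lower, where 23.5% of the 13060 rows tested were called (12.1% higher, 11.3% lower). In mature mTEC no member was called, against 13.5% of 18021 rows, with member differences between -0.23 (Ltbr) and 0.18 (Traf6). The study did not set out to compare the lines, so line and any batch that goes with it cannot be told apart.

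Tnfrsf11b was again the member with the largest difference. Its 4 immature libraries held 43.3, 64.5, 72.4 and 82.6 CPM in the Rbfox1 line and 30.2, 33.4, 36.5 and 44.1 CPM in the Rbfox2 line. They overlapped only through Rbfox1 tKO replicate 2 and Rbfox2 control replicate 2. The log2 difference was 0.85 ± 0.15 (adjusted p = 0.000384). In mature mTEC the lines were alike in level, 316.3 to 361 against 328 to 340 CPM, with a difference of 0.00 ± 0.06.

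Cd40 held 84.4, 92.9, 105 and 109 CPM in immature mTEC of the Rbfox1 line and 52.4, 63.0, 70.0 and 72.4 CPM in the Rbfox2 line, without overlap (0.59 ± 0.11, adjusted p = 0.000578). Traf6 was also apart, at 76.3 to 85.5 against 47.8 to 63.0 CPM (0.50 ± 0.10, adjusted p = 0.00141), as was Nfkb2 at 474 to 539 against 378 to 473 CPM (0.30 ± 0.07, adjusted p = 0.00469). Ltbr was lower in the Rbfox1 line, 81.8 to 98.4 against 105 to 125 CPM (-0.38 ± 0.09, adjusted p = 0.00511). Thus the 4 genes that rose most with maturation were higher in the immature libraries of the Rbfox1 line. Ltbr, which was lower in mature mTEC, was lower there. Not all members followed this: Relb, whose rise in control mice was near that of Nfkb2 (0.78 against 0.81), was not called between lines. Traf3, which was not called with maturation, was called higher in the Rbfox1 line.

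The remaining members were less firm. Traf3 was 0.34 ± 0.10 higher in the Rbfox1 line (adjusted p = 0.0172), but not called without Rbfox1 tKO replicate 2 (0.0676), Rbfox2 tKO replicate 2 (0.0567) or Rbfox2 control replicate 2 (0.0733). Tnfrsf11a was 0.22 ± 0.08 higher (adjusted p = 0.0445) and lost its call with DESeq2 (0.135), with sex as a covariate (0.0538), without a filter (0.0822) and without any of 7 of the 8 libraries (up to 0.123). Relb missed the threshold at 0.26 ± 0.10 (adjusted p = 0.0627) and passed it without a filter (0.0292) and without Rbfox1 tKO replicate 3 (0.0353) or Rbfox2 control replicate 1 (0.0338). Map3k14 (0.17 ± 0.11) and Rela (-0.02 ± 0.10) were not called. Groups of 4 did not overlap for 5 of the 10 genes, Cd40, Ltbr, Traf3, Traf6 and Nfkb2, against 23.9% of rows with a mean of at least 10 CPM. In mature mTEC they did not overlap for Ltbr, Traf3 and Traf6, against 23.3%.

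**Figure D5:**
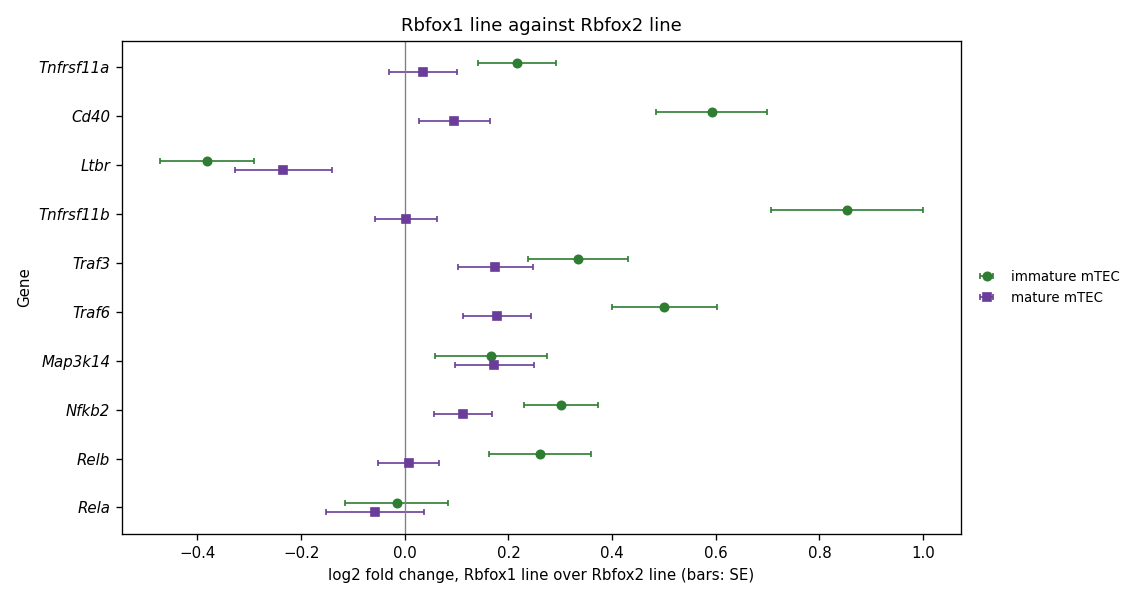
Log2 fold change of the Rbfox1 over the Rbfox2 line (x axis) for the 10 genes (y axis), with standard errors, in immature (circles) and mature mTEC (squares), 4 libraries against 4. Tnfrsf11b at 0.85 and Cd40 at 0.59 are farthest to the right in immature mTEC, and lie at 0.00 and 0.10 in mature mTEC.

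Other genes moved with this difference between immature libraries. Of the 45 further pathway genes tested, 17 were higher in the Rbfox1 line and 2, Tnfrsf1a and Tnfrsf21, were lower, by -0.61 and -0.46. Over all rows, 12.1% were called higher and 11.3% lower. The receptors Tnfrsf10b (0.70) and Fas (0.56) were higher, as were the ubiquitin ligases Birc2 (0.50) and Birc3 (0.39) and the kinases Ikbke (0.88), Tbk1 (0.78), Ikbkb (0.49) and Chuk (0.41). Among the inhibitors Nfkbid (1.63), Nfkbiz (0.44), Tnip1 (0.35), Tnfaip3 (0.31), Nfkbie (0.28) and Nfkbia (0.28) were higher, and among the responding genes Aire (2.71), Cd80 (1.74) and Fezf2 (0.51). In mature mTEC 9 of 50 were higher, namely Birc2, Chuk, Ikbkb, Tbk1, Ikbke, Rel, Tnfaip3, Aire and Cd80, between 0.25 (Cd80) and 0.995 (Aire). The chemokine gene Ccl19, which has near-identical copies, stood at -0.99 there. Over all rows in mature mTEC, 13.5% were called in either direction. The 6 fibroblast markers summed to 340 to 669 CPM in immature mTEC of the Rbfox1 line but 1753 to 2581 CPM in the Rbfox2 line, and all 6 were lower in the Rbfox1 line. The 4 endothelial markers summed to 19 to 57 against 58 to 186 CPM, with 3 of 4 lower. The EpCAM+ gate is meant to leave out both cell types, and their part in the member differences was not tested.

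The rise of 2 members with maturation differed between the lines, in an interaction fit over the 16 libraries that was added after the levels by line had been seen. It draws on the libraries of the line comparison above, where both members differed in immature mTEC and neither was called in mature mTEC. It restates that difference and is not separate evidence. Here 5.05% of 17442 rows were called (1.89% higher, 3.16% lower). Tnfrsf11b rose by 2.18 ± 0.11 in control mice and 2.51 ± 0.14 in tKO mice of the Rbfox1 line, and by 3.09 ± 0.13 and 3.26 ± 0.14 in the Rbfox2 line. The difference, Rbfox1 minus Rbfox2 line, was -0.85 ± 0.15 (adjusted p = 0.000540). Cd40 rose by 1.69 ± 0.11 and 1.85 ± 0.12 against 2.20 ± 0.10 and 2.32 ± 0.14, a difference of -0.49 ± 0.13 (adjusted p = 0.0211). The Cd40 call was lost without Rbfox1 tKO replicate 3 mature (0.0536), Rbfox1 control replicate 3 immature (0.0517), Rbfox2 tKO replicate 1 immature (0.0697) or Rbfox2 control replicate 1 immature (0.0770). Of the 50 further pathway genes tested, 7 differed in the same direction, Aire (-1.71), Cd80 (-1.48), Nfkbid (-1.31), Tnfrsf9 (-0.95), Tnfrsf10b (-0.71), Fezf2 (-0.59) and Fas (-0.53). With the mouse as a block, 1335 rows were called in place of 880, and the calls of the members did not change. Both rises were called within each line and each genotype.

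Over the 16 libraries, the genes whose log2 CPM followed a receptor most closely were found by Pearson correlation with 11301 other named genes of at least 10 CPM on average. These correlations are descriptions and are carried by the contrast of mature and immature libraries, which all genes share. For Tnfrsf11a they were Rab32 (r = 0.976), Sh3pxd2a (0.972) and Tub (0.971). For Cd40 they were Il4i1, an amino acid oxidase gene, (0.995), Blnk, an adaptor of B cell receptor signaling, (0.994) and Micall2 (0.994). For Ltbr they were Grn, the progranulin gene, Zcchc24, and Ackr4, a scavenging receptor for CCL19 and CCL21 (each 0.992). Among the members, Cd40 and Tnfrsf11b (0.991), Traf6 and Nfkb2 (0.989) and Nfkb2 and Relb (0.986) were the closest pairs, while Traf3 reached at most 0.409, with Map3k14.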

How the data were processed

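The values are counts per gene or assembled locus that the authors deposited without normalization. Before counting, duplicates and unmapped reads had been taken out and alignments down-sampled, to 10000000 for immature and 14500000 for mature mTEC per the column names. HISAT2 2.1.0, Picard 2.10.9, featureCounts 1.6.0 and mm10 are credited to the submitters' processing notes. No source used here gives the strand setting of the counting. Names, positions and exon lengths came from GENCODE M21 (GRCm38), which held 53360 of 53464 Ensembl genes.

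Tests used R 4.3.3 and edgeR 4.0.16 (TMM, filterByExpr at a minimum count of 10, quasi-likelihood test, Benjamini-Hochberg over all rows). tKO comparisons used the 8 libraries of a population, mature against immature mTEC the 8 libraries of a genotype with line as covariate. Replicates were separate mice, and the 2 libraries of a group differed by a chi-square of 1.87 to 3.00 per degree of freedom. Mature and immature libraries of a number were taken to come from 1 mouse (correlation of deviations 0.176 to 0.302). Controls were sex-matched littermates, but no source used here says that equal numbers mark littermates. For the block, tKO and control mice of a number were taken as pairs (0.123 to 0.318). With 2 mice per group, both pairs of a line share 1 such value, and these correlations do not establish the pairing. Ratios used a pseudocount of 0.5 counts and were tested in Python 3.11.15 with numpy 2.4.6 and scipy 1.17.1. Fits were tested on simulated data.

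The 10 genes, the pathway list, the marker lists and the tests were chosen with earlier results of these data known. Named genes are the 10 members, in each role of the pathway list the up to 3 genes with the largest called change with maturation in control mice and those called between lines, and the 3 genes most like each receptor. Nfkb1 was added after its value was seen. Alternatives were DESeq2 1.42.0, its size factors, no filter, a fold change over 2, thinning to 1506134 counts per library, the replicate block, sex as a covariate, fewer libraries and each library left out. Fits within a line, and the difference between lines in maturation, were added after the data were seen.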

Additional observations from a re-analysis of the deposited data

Results flagged for a closer look

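Over 80 groups of 4 libraries of a member gene, 3 libraries stood far from the rest of their group by Dixon's criterion, which flags about 1 in 20 groups by chance. Groups were made by genotype and again by line within each population, so each library was used more than once. Traf3 in mature mTEC of Rbfox2 control replicate 2 was 103 CPM, while the other libraries of that line lay between 125.0 and 128.2 CPM. Traf6 in immature mTEC of Rbfox1 control replicate 3 was 85.5 CPM against 76.3 to 77.2 CPM in the rest of its line. Rela in mature mTEC of Rbfox2 tKO replicate 1 was 63.3 CPM against 81.0 to 81.5 CPM in the other tKO mice.

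The change with maturation differed between the Rbfox1 and Rbfox2 lines by -0.85 on the log2 scale for Tnfrsf11b and by -0.49 for Cd40, in a test of the difference itself by edgeR. The test restates the difference between the lines in the same immature libraries. The sums of fibroblast and endothelial markers differed between the immature libraries of the lines as well, and their part in these differences was not tested.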

How the results depend on the processing

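With a fold change over 2 required, 4 members were called with maturation in control and in tKO mice, and 0 between lines in immature mTEC or in the difference of maturation between lines. Over all rows this left 6282 and 6269 calls with maturation, 190 and 653 between lines in mature and immature mTEC, 381 for the difference between lines, 5 and 7 for Rbfox2 tKO in mature and immature mTEC, and 3 and 4 for tKO over both lines. Without a filter on low counts, tKO calls numbered 25 and 51 (mature, Rbfox1 and Rbfox2), 58 and 96 (immature), 47 and 109 (both lines, mature and immature) and 28 (difference of maturation). With the replicate block they were 11 and 28 in mature mTEC of each line, 17 and 28 over both lines, 27 for the difference of maturation between genotypes and 1335 for that between lines. The block changed no other call by as much. With the 4 libraries of the Rbfox2 line alone, 21 and 7 rows were called. DESeq2 called 1884 rows between lines in immature mTEC and 1 for the difference of maturation between genotypes. The cause was not tested.

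In the 4 control mice alone, where the smallest exact p is 0.125, the ratios differed by 2.12 (Tnfrsf11b to Tnfrsf11a), 1.42 (Cd40 to Tnfrsf11a), -1.76 (Ltbr to Tnfrsf11a), 1.10 (Relb to Rela) and -0.50 (Traf3 to Map3k14), in the same directions. Traf3 with maturation in tKO mice, which was not called, turned to -0.011 after thinning and -0.14 in the Rbfox1 line alone.

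Leaving out 1 library at a time gave 8 to 9 members called with maturation in control and in tKO mice, 0 to 1 and 5 to 7 between lines in mature and immature mTEC, and 1 to 2 for the difference between lines. Over all rows the calls ranged from 4 to 14 and 5 to 17 (mature, Rbfox1 and Rbfox2 tKO), 5 to 12 and 5 to 17 (immature), 6 to 16 and 6 to 29 (both lines), 1532 to 2355 and 2325 to 2704 (between lines), 0 to 4 (maturation between genotypes) and 644 to 927 (between lines). Traf3 in tKO mice ranged from -0.048 to 0.084 with maturation, and Rela between lines in immature mTEC from -0.10 to 0.039. With 2 mice per genotype and line, and 45 to 202 counts for Tnfrsf11b in immature libraries, small differences in these members were not detectable.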
